A study of Danio rerio with 12 samples.

Results

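Zebrafish embryos that lacked prdm1 and carried pbx2/4 morpholinos were compared with embryos that carried the same morpholinos and had both copies of prdm1. The comparison asks what loss of prdm1 changes in muscle and in other tissues once pbx2 and pbx4 have been targeted. It used 6 of the 12 RNA sequencing libraries of the series, and all genes. Double embryos were pbx2/4-MO; prdm1-/-. The pbx2/4 morphants were pbx2/4-MO; prdm1+/+. For reference to embryos without pbx2/4 morpholinos, 3 libraries of prdm1 mutants (control morpholinos, prdm1-/-) and 3 of controls (control morpholinos, prdm1+/+) were used. All embryos were of the AB strain, were injected at the 1 cell stage and were collected at 10 somites. RNA was isolated from single embryos, genotyped and then pooled, so each library is a pool of whole embryos and not a muscle sample. The labels do not name the prdm1 allele.

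prdm1a encodes a zinc-finger transcriptional repressor. In zebrafish it is needed for the slow muscle fate of the first trunk fibres, and for Rohon-Beard sensory neurons and part of the neural crest at the edge of the neural plate. In slow muscle precursors it is known to keep fast muscle genes silent. Pbx proteins are homeodomain proteins that bind DNA with Hox, Meis and myogenic factors, and in zebrafish they are known to assist Myod in switching on fast muscle genes. A morpholino is a synthetic antisense molecule that keeps its target RNA from being spliced or translated.

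The 6 libraries held 9413623 to 17236848 estimated counts each, so that 1 count was worth 0.0572 to 0.105 CPM (counts per 1e6, with library sizes scaled by TMM). Each group had 1 library in each of 3 sets, called A, B and C here after the form of the column names, and the set was a block in the fit. Columns of sets B and C carry the same sample number within each group, so the libraries of these sets may come from the same RNA pool. Between sets B and C, libraries of a group differed far beyond counting noise, with a chi-square per gene of 23.8 to 33.2. Over all pairs of libraries within a group it was 12.2 to 35.3. In each group it was lowest between sets A and C, at 12.2 to 19.3, though these carry different sample numbers. Such an excess cannot tell a shared pool from separate pools, and all libraries were kept. The biological coefficient of variation was 0.0754 with the set as a block and 0.212 without it. Of 31051 gene identifiers, 18117 passed the filter on low counts and were tested. Defining markers of notochord, blood, endothelium, hindbrain and epidermis were detected in these pools, as in whole embryos, and none of them was called. With 3 or 4 tested per tissue and 1.26% of all genes called, that is near the background and says nothing particular of these tissues. Their summed levels overlapped between the groups, for example 13970 to 16920 CPM in double embryos and 13850 to 17160 CPM in pbx2/4 morphants for the epidermal markers. Overlap is the usual case, since only 5.13% of all genes tested had groups that did not overlap.

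Loss of prdm1 in the pbx2/4 morphants changed 229 genes, 1.26% of those tested, at an adjusted p under 0.05 (edgeR's quasi-likelihood test with the set block and Benjamini-Hochberg adjustment, as for every adjusted p given here unless another fit is named). Of these, 131 were higher in double embryos (0.723% of the genes tested) and 98 were lower (0.541%). Among the lower genes were 3 slow myosin heavy chain genes, 9 of 43 tested sensory neuron genes and the hatching enzyme genes he1a and he1b. Among the higher genes were 4 fast myosin heavy chain genes and agr2. The change was 1 or more on the log2 scale for 47 of the higher and 49 of the lower genes. The double library lay on the same side of the morphant library of its set in all 3 sets for 227 of the 229 genes, against 29.7% of all genes tested. The 2 groups did not overlap for 163 of the 229, against 5.13% of all genes tested. The fit that chose the 229 genes used the same libraries and sets, so both counts follow in part from the choice and support nothing. The median log2 fold change over all genes tested was 0.00. Without the block, 28 genes (0.155%) were called, 13 higher (0.0718%) and 15 lower (0.0828%), all of them among the 229. The count was 108 without the double library of set A, 138 without that of set C, 144 without the morphant library of set C, 83 without set A and 75 without set C. It was 311 with the columns of a sample number summed, which joins sets B and C.

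prdm1a (ENSDARG00000002445), taken here to be the mutated gene that the labels call prdm1, was not lower in RNA. It had 238.8, 218.0 and 225.1 CPM in the double libraries of sets A, B and C, against 127.1, 109.7 and 129.1 CPM in the pbx2/4 morphants. Every double library was above every morphant library (log2 fold change 0.90, SE 0.06, adjusted p = 7.64e-08). In prdm1 mutants against controls, with 139 and 105 CPM, the log2 fold change was 0.41 (adjusted p = 0.000723). The difference between these 2 effects was 0.49 (SE 0.08, adjusted p = 0.182). The paralog prdm1b (ENSDARG00000053592) had 7.02 ± 2.55 CPM in double embryos and 4.695 ± 0.811 CPM in pbx2/4 morphants (SD, n = 3 each), with overlapping groups and adjusted p = 0.444. The other identifier named prdm1b (ENSDARG00000078168) had 1.61 ± 0.802 and 1.92 ± 0.984 CPM (adjusted p = 0.965). RNA of the morpholino targets was not called between the groups. pbx2 had 276 ± 41.9 CPM in double embryos and 260 ± 35.5 CPM in pbx2/4 morphants (log2 fold change 0.08, adjusted p = 0.923), and pbx4 had 441 ± 75.1 and 438 ± 43.2 CPM (0.00, adjusted p = 0.999). Both RNAs were higher in pbx2/4 morphants than in controls, in the comparison that shares the morphant libraries. There pbx2 had 260 ± 35.5 CPM in pbx2/4 morphants and 57.05 ± 12.7 CPM in controls (log2 fold change 2.199, SE 0.07, adjusted p = 2.44e-11), and pbx4 had 438 ± 43.2 and 330 ± 39.7 CPM (0.41, SE 0.05, adjusted p = 3.43e-05). RNA level does not measure the loss of Prdm1 or Pbx protein.

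Slow muscle myosin heavy chain RNA fell. Summed over smyhc1, smyhc2 and smyhc3, which encode the motor of slow fibres, it was 46.3, 71.3 and 63.0 CPM in double embryos and 528.9, 377.8 and 418.8 CPM in pbx2/4 morphants. The highest double library was far below the lowest morphant library. Means were 60.2 ± 12.7 and 441.8 ± 78.1 CPM (SD, n = 3 each), a log2 fold change of -2.86 (SE 0.30, adjusted p = 0.00887). In whole-embryo pools, fewer slow fibres and less RNA per fibre cannot be told apart. The call was lost without the double library of set C (adjusted p = 0.0673), without set A (0.186), without set C (0.319) and in a fit of the 6 libraries alone (0.186), with log2 fold changes of -2.57 to -2.91 in these fits. It held without the block (adjusted p = 0.00048).

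The 3 genes moved alike. smyhc1 had 39.3, 58.1 and 53.6 CPM in double embryos and 448.4, 317.2 and 357.3 CPM in pbx2/4 morphants (log2 fold change -2.88, SE 0.29, adjusted p = 0.00732, and 0.0588 without the double library of set C). smyhc2 fell by 2.79 on the log2 scale (adjusted p = 0.00286) and smyhc3 by 2.81 (adjusted p = 5.66e-07). Near-identical family members can exchange reads, so the split among them is uncertain. Ranks here are among called genes with the same sign in all sets and at least 2 CPM on average in the higher group. Also among the 12 most lowered of these were 4 identifiers to which the files give no gene role. CU633479.6, CU633479.7, si:ch211-24n20.3 and CR450736.2 fell by 2.83 to 3.02 on the log2 scale, to means of 1.81 to 2.95 CPM in double embryos, against 14.4 to 21.96 CPM in pbx2/4 morphants.

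Of the 23 tested genes of a slow muscle list, 7 fell and 2 rose, with a median log2 fold change of -0.32 over the list. This is 39.1% called, against 1.26% of all genes tested. The lists were chosen with earlier results of these data known, so such a share supports nothing. Besides the myosin heavy chains, MYL4, currently named myl13, fell. This myosin light chain gene had 3.57, 3.98 and 4.58 CPM in double embryos and 19.4, 24.2 and 18.9 CPM in pbx2/4 morphants (log2 fold change -2.37, SE 0.30, adjusted p = 0.00553, and 0.059 without the double library of set C). The light chain gene myl10 fell by 0.95 (adjusted p = 0.0117, 0.0892 without the double library of set A). The troponin T gene tnnt2c fell by 0.72 (adjusted p = 0.00599, 0.0651 without the double library of set A), and MYH7B (3 of 3), a myosin heavy chain gene, by 1.15 (adjusted p = 0.0204, 0.127 without the double library of set C). The 2 genes of the list that rose were prdm1a and mybpc1, which encodes the slow form of myosin-binding protein C in mammals. mybpc1 had 8.62, 3.15 and 6.24 CPM in double embryos and 1.77, 0.577 and 1.60 CPM in pbx2/4 morphants (log2 fold change 2.17, SE 0.21, adjusted p = 1.58e-05, and 0.316 without the block). Of the other members, the tropomyosin gene tpm3 had 458 and 518 CPM (adjusted p = 0.0864), sox6, which encodes a repressor of slow genes, had 17.1 and 14.7 CPM (0.725), and prox1 had 6.72 and 8.45 CPM (0.707) in double embryos and pbx2/4 morphants. The count of lowered members was 4 without the block, 3 without the double library of set A, 4 without that of set C, 2 without set A and 3 without set C.

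**Figure D1:**
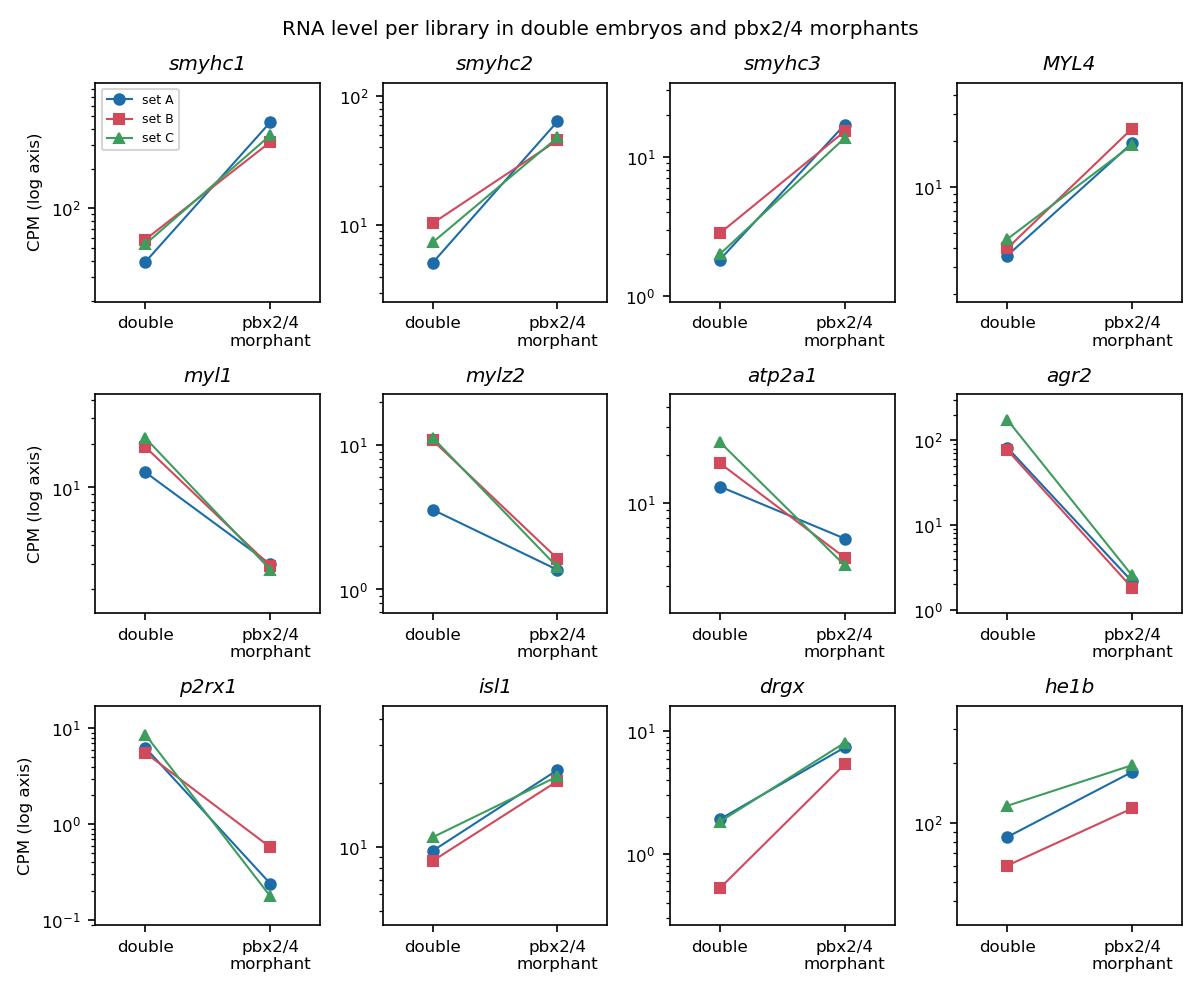
RNA level in CPM (log axis, its own range in each panel) of 12 genes in the 3 double libraries (left) and the 3 pbx2/4 morphant libraries (right), with a line joining the libraries of a set. smyhc1 lay at 39.3 to 58.1 CPM in double embryos and at 317.2 to 448.4 CPM in pbx2/4 morphants, while agr2 lay at 77.0 to 174.8 and at 1.83 to 2.55 CPM.

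Fast muscle myosin heavy chain RNA rose, though the level in pbx2/4 morphants was close to the counting floor. The sum over the 6 fast myosin heavy chain identifiers was 4.44, 9.64 and 12.2 CPM in double embryos, from 51, 92 and 213 counts. In pbx2/4 morphants it was 0.804, 0.769 and 0.535 CPM, from 10, 8 and 9 counts. The lowest double library, that of set A, was still above every morphant library. The means were 8.76 ± 3.95 and 0.702 ± 0.147 CPM (SD, n = 3 each), and the log2 fold change was 3.68 (SE 0.41, adjusted p = 0.00109). This call held under every alternative that was run. myhz1.3 carried most of the counts, with 2.79, 6.39 and 7.84 CPM in double embryos and 0.241, 0.385 and 0.178 CPM in pbx2/4 morphants (log2 fold change 4.46, SE 0.39, adjusted p = 9.32e-06). Of the others, myhz1.2 had 27 counts over the double libraries and 0 over the morphant libraries, at least 9.28-fold higher against a floor of 3 counts over the group (the lower 95% counting limit of the ratio is 7.04). myhz1.1 had 33 counts and 1 count (ratio 34.0, 95% counting interval 5.70 to 1384), and myhz2 had 38 and 5 counts (ratio 7.83, interval 3.08 to 25.5). The calls of myhz1.2 and myhz2 were lost without the morphant library of set C (adjusted p = 0.0515 and 0.0803). myhc4 had 16 and 7 counts and did not pass (adjusted p = 0.808). These intervals cover counting error only, and the split among the members is uncertain for the reason given for the slow genes.

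The fast light chain genes myl1 and mylz2 and the calcium pump gene atp2a1 rose as well. myl1, a fast myosin light chain gene, had 12.7, 19.0 and 21.9 CPM in double embryos and 2.97, 2.88 and 2.73 CPM in pbx2/4 morphants (log2 fold change 2.65, SE 0.17, adjusted p = 1.17e-07). The morphant libraries were nearly alike, and all double libraries stood above them. mylz2, currently MYL11, encodes the regulatory light chain of fast fibres. It had 3.57, 10.8 and 11.3 CPM in double embryos and 1.37, 1.63 and 1.425 CPM in pbx2/4 morphants (log2 fold change 2.52, SE 0.28, adjusted p = 0.000159). The double library of set A was the lowest of the 3 for both genes. atp2a1, the calcium pump of the fast fibre's sarcoplasmic reticulum, had 12.6, 17.7 and 24.0 CPM in double embryos and 5.95, 4.52 and 4.04 CPM in pbx2/4 morphants (log2 fold change 1.92, SE 0.27, adjusted p = 0.00864, and 0.0692 without the morphant library of set B).

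The rise did not extend to most of the fast muscle list. Of its 24 tested genes 8 rose and none fell (33.3% called, against 1.26% of all genes tested), and the median log2 fold change was 0.06. Besides 4 of the fast heavy chain genes (myhz1.1 to 1.3 and myhz2), tpma rose. It is an alpha-tropomyosin gene with 56.8 ± 10.6 CPM in double embryos and 43.4 ± 7.77 CPM in pbx2/4 morphants (log2 fold change 0.39, adjusted p = 0.0137, and 0.162 without the double library of set C). The fast troponin I gene tnni2b.1 had 95.5 and 91.1 CPM in double embryos and pbx2/4 morphants (log2 fold change 0.06, adjusted p = 0.98). The fast troponin C gene tnnc2 had 29.4 and 36.9 CPM (-0.34, adjusted p = 0.19), the actinin gene actn3b 27.98 and 28.55 CPM (-0.03, adjusted p = 0.988), and mylz3, another fast light chain gene, 4.54 and 4.26 CPM (0.02, adjusted p = 0.997). The number of raised members was 4 without the block, 5 without the morphant library of set C, 5 without set B and 4 without set C, and no member was called lower in any of these fits.

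Genes that slow and fast fibres share were mostly not called. Of 52 tested pan-muscle genes, 2 rose and 2 fell, with a median log2 fold change of -0.03. This is 7.69% called, above the 1.26% of all genes tested. The 2 that rose were unc45b and tpma, which is counted on the fast muscle list too. xirp1, an actin-binding protein of fibre attachments, fell to 30.3, 32.7 and 38.1 CPM in double embryos, against 83.3, 62.4 and 62.3 CPM in pbx2/4 morphants (log2 fold change -1.03, SE 0.12, adjusted p = 0.000373). The skeletal actin gene acta1a fell by 0.62 (adjusted p = 0.00864, 0.0744 without the double library of set C). The myosin chaperone gene unc45b had 324 ± 8.64 and 274 ± 14.3 CPM, a rise of 0.24 that was lost in fits without any of 9 single libraries (adjusted p = 0.042, 0.315 without the morphant library of set C). Outside the lists and picked after their values were seen, kbtbd10a, currently KLHL41, a muscle protein of the kelch family, had 1.74, 1.36 and 2.003 CPM in double embryos and 6.35, 5.19 and 6.53 CPM in pbx2/4 morphants (log2 fold change -1.82, SE 0.21, adjusted p = 0.000127).

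Of 51 tested myogenic regulator genes, 1 rose and 1 fell (3.92% called, against 1.26% of all genes tested). tmem8c, the myomaker gene needed for fusion of fast fibres, rose to 7.58, 5.975 and 9.10 CPM in double embryos, against 5.305, 1.92 and 3.74 CPM in pbx2/4 morphants (log2 fold change 1.07, SE 0.22, adjusted p = 0.0222). myf6, which encodes the late myogenic factor Mrf4, fell. It had 7 counts over the double libraries and 46 over the morphant libraries (log2 fold change -2.58, SE 0.50, adjusted p = 0.0125). Neither call held without the double library of set C (adjusted p = 0.275 for tmem8c and 0.158 for myf6). The myogenin gene myog had 20.3 and 11.2 CPM in double embryos and pbx2/4 morphants (log2 fold change 0.86, adjusted p = 0.0577). The early determination genes myod1, with 129 and 132 CPM, and myf5, with 46.6 and 48.7 CPM, did not pass (adjusted p = 0.99 and 0.962).

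Of 43 tested genes on a list of Rohon-Beard and other sensory neurons, 9 fell, 1 rose and 33 were not called, and the median log2 fold change was -0.14. This is 23.3% called, against 1.26% of all genes tested. isl1, a LIM homeodomain factor of these neurons, had 9.58, 8.595 and 11.1 CPM in double embryos and 23.0, 20.4 and 21.4 CPM in pbx2/4 morphants (log2 fold change -1.13, SE 0.12, adjusted p = 2.87e-05). The double libraries lay close together and far below the morphant libraries. zgc:158291, currently pou4f4, a gene of the Brn3 family of POU factors, had 2.09, 1.15 and 1.77 CPM in double embryos and 8.04, 4.998 and 5.88 CPM in pbx2/4 morphants (log2 fold change -1.89, SE 0.20, adjusted p = 4.07e-05). These 2 calls held without the block. drgx, a homeobox gene of pain-sensing neurons, is not on the list. It was among the 12 most lowered genes in the ranking given with the slow genes, which set a minimum mean of 2 CPM. It had 1.92, 0.524 and 1.83 CPM in double embryos and 7.39, 5.38 and 8.08 CPM in pbx2/4 morphants (log2 fold change -2.24, SE 0.24, adjusted p = 5.42e-05).

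The 7 other genes of the list that fell had smaller changes or lower levels. elavl3, a neuronal RNA-binding protein gene, had 91.5, 63.5 and 72.2 CPM in double embryos and 127.2, 85.3 and 99.95 CPM in pbx2/4 morphants (log2 fold change -0.46, SE 0.06, adjusted p = 0.000177). Its groups overlapped, and the double library was the lower in each set. elavl4 fell by 1.75 on the log2 scale (adjusted p = 0.00502, 0.0559 without the double library of set A), and cntn2, an axonal adhesion protein gene, by 1.16 (adjusted p = 0.00568, 0.0749 without the same library). The homeobox gene tlx3b fell by 1.54 (adjusted p = 0.0112, 0.0617 without the double library of set C). p2rx3a, an ATP-gated channel gene of sensory neurons, fell by 1.41 (adjusted p = 0.0342), nadl1.1, an L1-type adhesion gene, by 1.15 (0.0493), and neurod by 0.57 (0.0457), and leaving out 1 library could end each of these calls (p2rx3a 0.337 without the morphant library of set C, nadl1.1 0.357 without the double library of set C, neurod 0.211 without the morphant library of set A). Of the 12 fits that each left out 1 library, p2rx3a kept its call in 6, nadl1.1 in 3 and neurod in 1. The member that rose was ntrk2a, a neurotrophin receptor gene with 9.64 ± 2.16 and 5.98 ± 0.49 CPM (log2 fold change 0.66, adjusted p = 0.0306, 0.259 without the double library of set A). Among members that did not pass were isl2a, with 35.3 and 38.3 CPM (adjusted p = 0.883), and runx3, with 2.86 and 3.29 CPM (0.941). Without the block 2 members were called lower, without the double library of set A 3, without set A 3 and without set C 4.

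Of 34 tested neural crest genes, 4 fell and none rose (11.8% called, against 1.26% of all genes tested), and the median log2 fold change was -0.01. EDNRA (1 of 2), currently ednrab, an endothelin receptor gene of crest cells, had 14.4, 21.0 and 13.3 CPM in double embryos and 26.7, 34.7 and 21.2 CPM in pbx2/4 morphants (log2 fold change -0.76, SE 0.12, adjusted p = 0.00289). The groups did not overlap, but the double library of set B came close to the morphant library of set C. C11H3orf54 (2 of 2), currently inka1a, had 11.6, 12.6 and 15.8 CPM in double embryos and 20.4, 24.0 and 23.5 CPM in pbx2/4 morphants (log2 fold change -0.75, SE 0.12, adjusted p = 0.00284). sox10, a factor of the pigment and glial lineages, fell by 0.47 (adjusted p = 0.032, 0.186 without the morphant library of set A), and tfap2a, which acts early in crest induction, by 0.24 (adjusted p = 0.0258, 0.165 without the double library of set A). foxd3, another early crest factor, had 25.4 and 19.7 CPM in double embryos and pbx2/4 morphants (log2 fold change 0.36, adjusted p = 0.327), and snai2 had 87.0 and 86.6 CPM (0.00, adjusted p = 0.998). None of the 4 calls held without the block, and the count was 2 without the morphant library of set A, that of set C, the double library of set A or that of set B, and 1 without set A or set C. In a list of neural plate border and Prdm1-linked genes, 2 of 22 tested rose and 3 fell (22.7% called). The 2 that rose were prdm1a and olig4, a basic helix-loop-helix factor with 19.4, 35.5 and 21.9 CPM in double embryos and 10.5, 20.6 and 13.2 CPM in pbx2/4 morphants (log2 fold change 0.79, SE 0.12, adjusted p = 0.00165). Its groups overlapped, the double library was the higher in each set, and the call was lost without the block (adjusted p = 1) and without set C. The 3 that fell were tfap2a, dlx3b (-0.34, adjusted p = 0.032, 0.315 without the morphant library of set C) and dlx4b (-0.86, adjusted p = 0.00958, 0.127 without the double library of set C).

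Hatching enzyme genes fell, while agr2, on the same list, had the largest rise among called genes with a mean of at least 2 CPM in the higher group. The hatching gland, which expresses prdm1a, secretes the proteases that dissolve the egg envelope. he1b had 84.6, 60.6 and 121.8 CPM in double embryos and 180.8, 118.1 and 195.6 CPM in pbx2/4 morphants (log2 fold change -0.91, SE 0.07, adjusted p = 1.56e-06). he1a had 503.0, 336.4 and 647.4 CPM in double embryos and 796.2, 574.4 and 846.2 CPM in pbx2/4 morphants (log2 fold change -0.61, SE 0.06, adjusted p = 3.98e-05). For both, groups overlapped, set B was the lowest in both groups, and the double library was the lower in each set. Without the block neither was called (adjusted p = 1). Of 20 tested members of the list, 3 rose and 2 fell (25% called, against 1.26% of all genes tested), and the median was -0.01. The cathepsin L gene ctsl1b, which marks the gland, had 662 and 750 CPM in double embryos and pbx2/4 morphants and did not pass (adjusted p = 0.709). Besides prdm1a, the members that rose were agr2 and SPDEF.

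agr2 encodes a disulfide isomerase of the secretory pathway that is known from mucus-producing cells. It had 82.1, 77.0 and 174.8 CPM in double embryos and 2.17, 1.83 and 2.55 CPM in pbx2/4 morphants (log2 fold change 5.69, SE 0.21, adjusted p = 2.39e-07). Every double library was many times above every morphant library, and the call held in every fit. SPDEF, an ETS factor of goblet cells in mammals, rose to 2.96, 2.096 and 2.86 CPM in double embryos, against 0.402, 0.673 and 0.178 CPM in pbx2/4 morphants (log2 fold change 2.77, SE 0.45, adjusted p = 0.00393, and 0.0525 without the morphant library of set C). Of 46 tested secretory pathway genes, 1 rose and 1 fell (4.35% called, against 1.26% of all genes tested). The 1 that rose was agr2, and the 1 that fell was calrl, a calreticulin gene of the same compartment (-0.33, adjusted p = 0.000912). The groups of calrl overlapped, and its call was lost without the block and without set C.

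The largest rises were ranked by the same rule, with a mean of at least 2 CPM in the higher group. Among the first 12 were several that none of the lists of muscle or nerve named. The fast heavy chain genes myhz1.1, myhz1.2 and myhz2 were below that level and are not ranked. p2rx1, an ATP-gated cation channel gene, had 6.27, 5.56 and 8.58 CPM in double embryos and 0.241, 0.577 and 0.178 CPM in pbx2/4 morphants (log2 fold change 4.46, SE 0.33, adjusted p = 5.66e-07). fev, an ETS factor of serotonergic neurons, had 2.87, 2.096 and 2.575 CPM in double embryos and 0.563, 0.0961 and 0.237 CPM in pbx2/4 morphants (log2 fold change 3.04, SE 0.36, adjusted p = 0.000131). Neither gene had overlapping groups, and both calls held without any 1 library and without the block. nme4, a nucleoside diphosphate kinase gene, rose by 2.40 (adjusted p = 5.12e-05, 0.118 without the block), st6gal1, a sialyltransferase gene, by 2.14 (adjusted p = 0.00219, 0.776 without the block), and CELA1 (1 of 8), an elastase gene, by 2.31 (adjusted p = 0.000513). The elastase gene's groups overlapped, since the morphant library of set B, at 1.06 CPM, was above the double library of set A, at 1.045 CPM, and the call was lost without the block (adjusted p = 1).

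The most lowered named gene outside muscle was epd, which encodes the secreted glycoprotein ependymin. It had 0, 0.105 and 0.858 CPM in double embryos and 4.26, 2.40 and 3.62 CPM in pbx2/4 morphants (log2 fold change -3.25, SE 0.55, adjusted p = 0.00891, and 0.376 without the block). dusp14, a phosphatase gene, fell to 0.958, 0.943 and 0.401 CPM in double embryos, against 1.93, 4.998 and 3.385 CPM in pbx2/4 morphants (log2 fold change -2.19, SE 0.38, adjusted p = 0.00608, and 0.0763 without the double library of set C). wu:fc01d11, to which the files give no role, had 12.02, 3.46 and 12.8 CPM in double embryos and 54.7, 27.0 and 44.1 CPM in pbx2/4 morphants (log2 fold change -2.12, SE 0.25, adjusted p = 0.00736, and 0.0604 without the block). slc4a4a, a sodium bicarbonate cotransporter gene picked after its values were seen, was among the steadiest of the lowered genes. It had 25.2, 25.6 and 24.3 CPM in double embryos and 60.6, 55.9 and 56.8 CPM in pbx2/4 morphants (log2 fold change -1.21, SE 0.09, adjusted p = 5.66e-07).

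**Figure D2:**
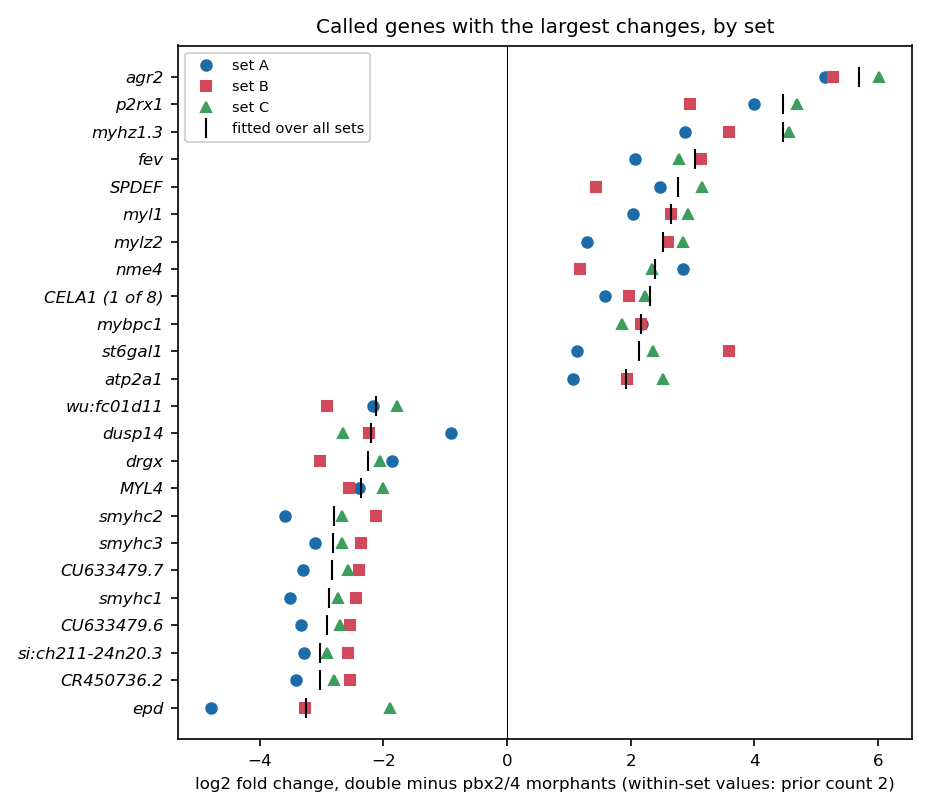
Log2 fold change, double minus pbx2/4 morphants, within each set (coloured points, prior count of 2) and in the fit over all sets (black bar), for the 12 genes with the largest rise and the 12 with the largest fall among called genes that kept their direction in all sets and averaged at least 2 CPM in the higher group. All 3 sets lie on the same side of 0 for each gene, which the choice of genes required, and agr2 lies farthest to the right.

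At 1.26% of all genes called, lists of this size hold few or no called genes by their size alone, so a count of 0 is near the background and says nothing particular of a list. None was called among 35 tested notochord and floor plate genes, 48 hindbrain genes, 14 Hox genes of paralog groups 1 to 4, 30 of groups 5 to 13, 31 blood genes, 31 endothelial genes, 30 FGF target genes, 57 Wnt and Notch genes, 79 ribosomal protein genes, 19 interferon and innate immunity genes, 41 p53 and DNA damage genes and 55 cell cycle genes. Their median log2 fold changes lay between -0.08 and 0.06. The pbx2/4 morphants themselves differed from controls in several of these lists, and that comparison shares the morphant libraries with the one described here. There, 18% of all genes tested were called, 7.91% higher and 10.1% lower, and the hindbrain list had 4 higher and 24 lower, the Hox list of groups 1 to 4 had none higher and 9 lower, the p53 list 17 higher and 4 lower, and the cell cycle list none higher and 46 lower. Among the remaining lists, 3 of 26 otic and placode genes fell and the median was -0.22, 3 of 24 endoderm and pancreas genes fell, 2 of 26 retinoic acid genes fell, and 1 rose and 2 fell of 45 forebrain, midbrain and eye genes. In the last list the telencephalic factor foxg1a fell by 0.65 (adjusted p = 0.00262, 0.112 without the block), and its call was also lost without set A. The endoderm and pancreas genes that fell were isl1, neurod and hnf4a, a nuclear receptor gene (-0.71, adjusted p = 0.0224, 0.189 without the double library of set A). The eye gene mab21l2 rose by 0.38 (adjusted p = 0.0125, 0.133 without the double library of set C), and the eye factor lhx2b fell by 0.48 (0.0476, 0.267 without the same library). The otic gene OTOP1, needed for the ear's otoconia, fell by 0.58 (adjusted p = 0.0423, 0.192 without the double library of set B). Of the retinoic acid genes, the binding protein gene crabp1b fell by 1.998 (adjusted p = 0.0131, 0.0898 without the morphant library of set B) and dhrs3b, a retinaldehyde reductase gene, by 0.38 (0.0495, 0.221 without the morphant library of set C). Of the 12 fits that each left out 1 library, lhx2b and dhrs3b kept their calls in 1 each and OTOP1 in 3. In the lists of motor neurons and interneurons (25 tested), heart field (21) and tailbud and segmentation clock (50) 1 gene each fell, which was isl1 in the first 2 and the integrin gene itga5 (-0.36, adjusted p = 0.007, 0.0671 without the morphant library of set C) in the last. In those of Hedgehog signalling (32), Pbx partners (15), chaperones and stress (29) and reference genes (22) 1 gene each rose, which was prdm1a in the first 2 and unc45b and gapdh in the others. Of 46 epidermis and periderm genes agr2 rose and dlx3b fell. The reference gene that rose was gapdh, a glycolytic enzyme gene, with 300.5, 291.7 and 385.6 CPM in double embryos and 190.3, 154.2 and 246.8 CPM in pbx2/4 morphants (log2 fold change 0.73, SE 0.09, adjusted p = 0.00242, and 0.294 without the block).

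**Figure D3:**
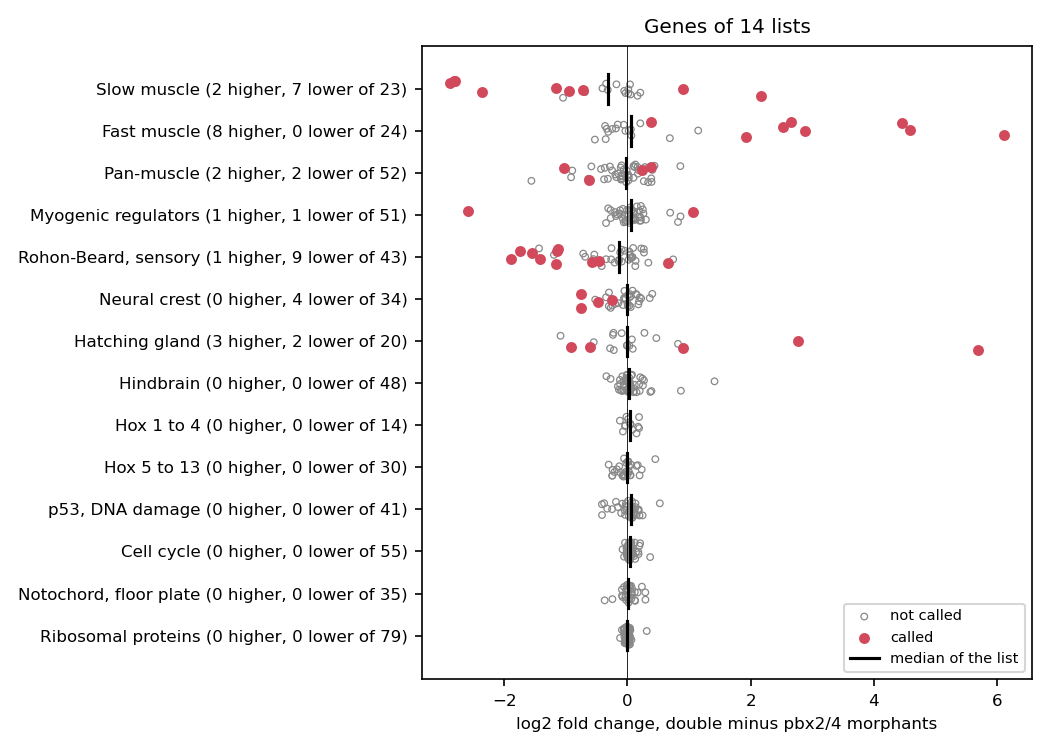
Log2 fold change, double minus pbx2/4 morphants, of the tested genes of 14 gene lists, with called genes filled, other genes open and the median of each list as a bar. The slow muscle and sensory lists hold 7 and 9 called genes below 0, the fast muscle list 8 above 0, and the hindbrain, Hox, p53, cell cycle, notochord and ribosomal lists no called gene.

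The effect of prdm1 loss was then set beside its effect in embryos without pbx2/4 morpholinos. The comparison of prdm1 mutants with controls uses 6 other libraries. Both comparisons were fitted in 1 model, with a shared estimate of the spread and shared set terms, so their calls are not fully independent. The comparison of prdm1 mutants with controls called 212 genes, 1.17% of those tested, 102 higher (0.563%) and 110 lower (0.607%). That count was 36 without the block, 102 without the control library of set C, 117 without that of set A, 115, 135 and 114 without the prdm1 mutant libraries of sets A, B and C, 72 without set A and 75 without set C. All 212 had the same direction in double embryos against pbx2/4 morphants, where 58.8% of all genes tested had. The agreement was complete in some other fits, such as 36 of 36 without the block, and not in others. It was 210 of 212 with DESeq2, 203 of 211 without the morphant library of set C and 199 of 205 without the double library of set C. Both comparisons called 125 genes, which is 59.0% of the 212 and 54.6% of the 229. Without the block they shared 23, without the control library of set C 78, without set A 49 and without set C 47. Across the 212 genes the log2 fold changes of the 2 comparisons had a Pearson correlation of 0.945, against 0.542 across all genes tested. Genes are not independent replicates, and no p is given. The 212 were chosen by their values in prdm1 mutants, and their absolute log2 fold change in the morphants had a median ratio of 0.826 to that in prdm1 mutants.

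Effects of close to equal size were seen for genes of several groups, picked here for it. agr2 rose by 5.69 on the log2 scale in double embryos against pbx2/4 morphants and by 5.30 in prdm1 mutants against controls, p2rx1 by 4.46 and 4.38, fev by 3.04 and 3.09, and myl1 by 2.65 and 2.35. The log2 fold change of isl1 was -1.13 and -1.20 in these comparisons, and that of zgc:158291 -1.89 and -1.61. Other named genes lay further apart, such as drgx with -2.24 and -1.53 and wu:fc01d11 with -2.12 and -0.76. Of the 229 genes, 228 had the same direction in both. The exception was CU302436.2, to which the files give no role, with log2 fold changes of -2.89 and 0.71. It rests on 4 counts over the double libraries and 34 over the morphant libraries, and its difference between the backgrounds did not pass (adjusted p = 1).

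No gene passed the test of whether prdm1 loss acted differently with and without pbx2/4 morpholinos. edgeR with the block called 0 of 18117 genes, with 500 at an unadjusted p under 0.05. edgeR without the block called 0 (102 at an unadjusted p under 0.05), and DESeq2 with the block called 0 (193). Each of these unadjusted counts is below a share of 0.05 of the genes tested, the share reached on average where no gene differs. Falling short of that share is no sign that the effects are equal. With 3 libraries per group, a count of 0 does not show that the effects are equal. The smallest adjusted p in edgeR with the block was that of prdm1a, 0.182. The slow myosin heavy chain sum had a log2 fold change of -2.86 in double embryos against pbx2/4 morphants and of -2.01 in prdm1 mutants (141 ± 50.4 CPM) against controls (559 ± 101 CPM). The difference was -0.86 (SE 0.40, adjusted p = 1). The fast myosin heavy chain sum rose by 3.68 in double embryos against pbx2/4 morphants and by 5.31 in prdm1 mutants (27.0 ± 10.1 CPM) against controls (0.715 ± 0.463 CPM). Here the difference was -1.63 (SE 0.73, adjusted p = 1). Set directly beside prdm1 mutants, double embryos had less of this RNA (log2 fold change -1.64, SE 0.24, adjusted p = 0.00109), in a comparison that shares the double libraries and called 7.29% of all genes higher and 9.09% lower. Genes with a wider gap between the backgrounds, picked for it, included scin, an actin-severing protein gene, which rose by 1.90 in the morphant background and had a log2 fold change of 0.76 in the other, and si:dkey-26c10.6, currently ephb6, a receptor of the Eph family, with -1.93 and -0.58. The difference had an adjusted p of 1 for both.

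**Figure D4:**
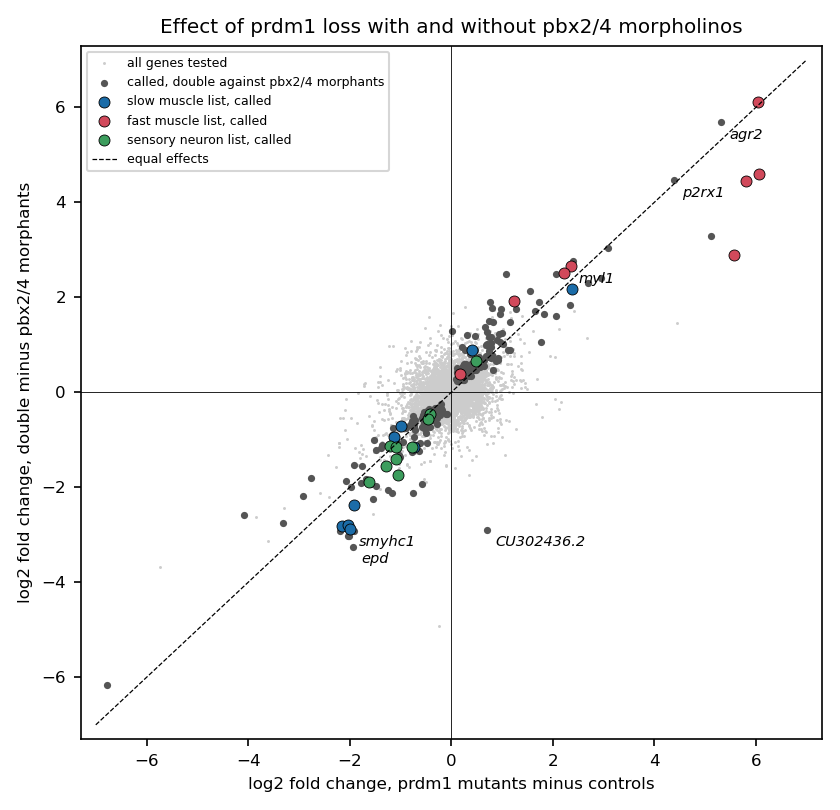
Log2 fold change of each tested gene in prdm1 mutants minus controls (x axis) and in double embryos minus pbx2/4 morphants (y axis), which share no library. Called genes of the slow muscle, fast muscle and sensory lists are coloured and the dashed line marks equal effects; all called genes but CU302436.2 lie in the lower left or upper right quadrant.

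**Figure D5:**
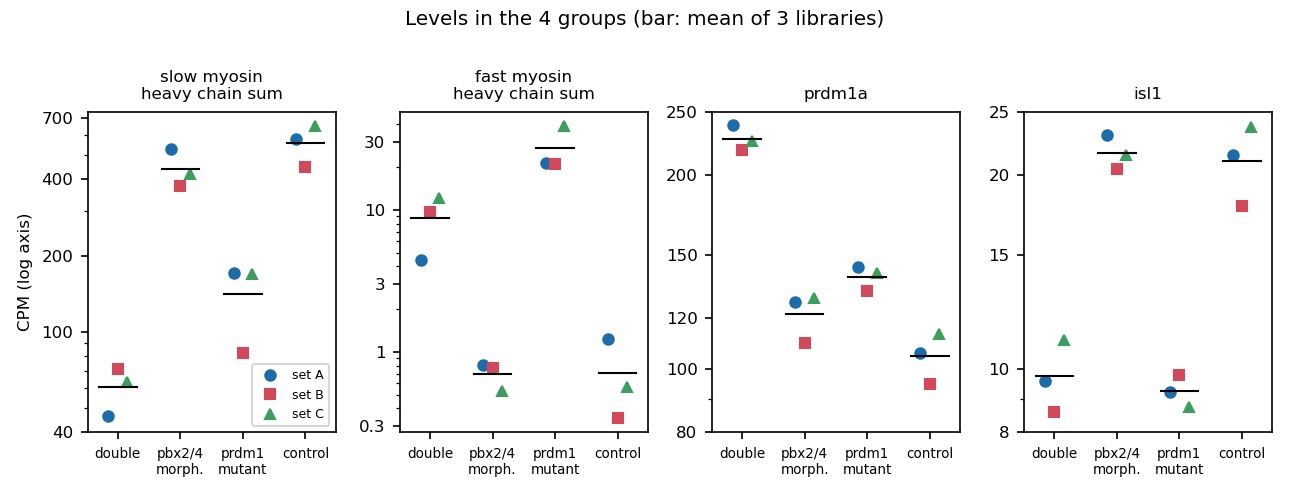
CPM (log axis) in each library of the 4 groups for the summed slow and summed fast myosin heavy chain genes, prdm1a and isl1, with the group mean as a bar. The fast sum lay at 4.44 to 12.2 CPM in double embryos and 0.535 to 0.804 CPM in pbx2/4 morphants, and averaged 27.0 CPM in prdm1 mutants and 0.715 CPM in controls.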

How the data were processed

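Whole-embryo RNA of 12 libraries, 3 in each of 4 groups, was measured by RNA sequencing. The authors deposited a table of estimated counts for 31051 gene identifiers, not normalised. Of its values 13.7% were not whole (tolerance 1e-06), and all were rounded before testing, where whole counts had been assumed. The submitters' processing notes list TopHat 1.4, edgeR and the Zv9 build. Which tool counted reads, with what annotation and strand setting, was not given in the sources used here. Reads of overlapping or antisense genes therefore cannot be told apart. The authors' own comparison tables were not used here.

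Genes were tested with edgeR 4.0.16 in R 4.3.3 (filterByExpr by group, TMM, quasi-likelihood F tests, all 12 libraries in 1 model of 4 groups with the set as a block, 6 residual degrees of freedom), adjusted by the Benjamini-Hochberg method over 18117 genes and called at an adjusted p under 0.05. The difference between backgrounds is the interaction contrast of this model. DESeq2 1.42.0 was an alternative. The fit was also run on simulated data, drawn with the same spread for all genes and with the sets as modelled. Such data cannot show whether the sets are true replicates, and no outcome is used here. Standard errors were taken as the size of the log2 fold change over the square root of its F statistic. Columns were assigned to groups by the group words in their names, or by the letters W and M, read as wild type and mutant. They carry no replicate number. Sets were formed from the style of the names, and their meaning is in no label. Correlations of deviations from group means were 0.448 to 0.669 in the 18 within-set pairs, and -0.483 to -0.030 in the 36 between-set pairs. Deviations from a group mean cancel out over its libraries, so the negative between-set values follow in part from that step. The labels give 3 independent rounds of egg collection and injection. They do not tie libraries to rounds, so the spread between libraries may be in part technical.

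The comparison, the 33 gene lists and the rules were chosen with earlier results of these data known. Lists are described by counts and medians, with no test of their own. Genes named are the targeted genes, the 12 largest called changes in each direction with the same sign in all sets and a mean of at least 2 CPM in the higher group, the 6 called genes of smallest p at most of each list, and the slow and fast myosin genes; further called members complete the counts of some lists, members that did not pass are examples, and other genes were picked after their values were seen. Current symbols come from a table of gene names that matched 20486 identifiers. No gene coordinates or sequences are given, since the reference at hand is of another build.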

Additional observations from a re-analysis of the deposited data

How the results depend on the processing

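Without the set as a replicate block 28 genes were called in double embryos against pbx2/4 morphants, where 229 were called with it. Leaving out single libraries gave 108 to 250 calls. Leaving out set A gave 83, and set C 75. Summing the columns of a sample number joins sets B and C and leaves 2 libraries per group. That fit called 311 genes. In it the slow myosin heavy chain sum had an adjusted p of 0.0405 and the fast sum 0.0101. Of 61 called genes among those named by rule, 20 kept their call without the block, 55 with DESeq2, 57 with the columns of a sample number summed, and 33 without each of the 12 libraries in turn. The slow myosin heavy chain sum kept its direction in all fits, but not its call without set A (-2.57), without set C (-2.91) or in the 6 libraries alone (-2.88), and leaving out single libraries gave -3.19 to -2.6, with the call lost without the double library of set C. The fast sum kept its call in every fit. The interaction count was 0 in every fit that held all 4 groups. Genes called in both backgrounds, a count added after seeing the data, numbered 23 without the block, 49 without set A, 47 without set C, 78 to 122 without single libraries and 162 with columns summed. pbx4, near 0 and not called, changed sign with DESeq2's size factors (-0.00308), with DESeq2 (-0.0033), in the 6 libraries alone (-0.00172), with columns summed (-0.00309), without set A (-0.0288) and without set B (-0.0357). Without single libraries its value ran from -0.0247 to 0.0447, with the sign changed in some of these fits and kept in the others. The causes of these changes were not tested. Genes under a few CPM rest on few counts, which limits their precision.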

Other observations

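The genes given here were picked after their values were seen, and no list of their kind was counted. Of those for plasma proteins and metabolism, 6 rose and 1 fell in double embryos against pbx2/4 morphants. fgg, the fibrinogen gamma chain gene, had 26.4, 18.03 and 34.2 CPM in double embryos and 14.4, 7.21 and 17.1 CPM in pbx2/4 morphants (log2 fold change 1.02, SE 0.12, adjusted p = 0.000127). The apolipoprotein gene apoa4 had 399.9, 253.8 and 644.8 CPM in double embryos and 211.0, 122.1 and 344.0 CPM in pbx2/4 morphants (0.95, SE 0.12, adjusted p = 0.00737, and 0.0553 without the double library of set A). The terminal complement genes C6 (1 of 2) and C7 (1 of 2) rose by 0.67 (adjusted p = 0.0037) and 1.11 (adjusted p = 0.0115, and 0.0915 without the morphant library of set B), and the vitronectin gene vtna by 1.47 (adjusted p = 0.00137). The gluconeogenic gene pck2 had 1401 ± 123 CPM in double embryos and 981.5 ± 119 CPM in pbx2/4 morphants (0.52, adjusted p = 1.41e-05). None of these 6 genes was called without the block. g6pca, another gluconeogenic gene, fell by 1.54 (adjusted p = 0.007, and 0.119 without the morphant library of set C).

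The acid phosphatase gene acp5a and zgc:112994, to which the files give no role, held their calls without any 1 library and without the block. acp5a had 735.7, 582.2 and 764.6 CPM in double embryos and 369.0, 301.9 and 342.7 CPM in pbx2/4 morphants (log2 fold change 1.03, SE 0.05, adjusted p = 1.47e-08). zgc:112994 had 70.5, 67.1 and 60.0 CPM in double embryos and 17.9, 19.6 and 15.3 CPM in pbx2/4 morphants (1.91, SE 0.08, adjusted p = 1.43e-09). rcv1, which encodes the calcium sensor recoverin, known from photoreceptors, rose by 1.75 (SE 0.17, adjusted p = 1.58e-05). Among the genes picked were some for synaptic proteins that fell, sncb by 1.27 (adjusted p = 0.00553, 0.0681 without the block), stxbp1a by 0.78 (0.0395, 0.226 without the morphant library of set A) and sv2b by 1.32 (0.0114, 0.118 without the double library of set A). The call of sncb was also lost without set A and without set B.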
